A study of Mus musculus with 2 samples.

Results

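The arrays carried 142 probes for 79 genes named as interleukins, as chains of interleukin receptors or as proteins that bind interleukins, among 56605 probes for 37074 gene names. Genes were taken by name alone, a name that starts with Il and a number, whatever their signal. *Il1b*, *Il18* and *Il1rn* were left out. Of the 79 genes, 36 encode ligands, 37 receptor chains and 4 decoy receptors or binding proteins. The other 2 share only the name, *Il1bos*, a noncoding transcript beside the gene of IL-1β, and *Il4i1*, an enzyme that oxidizes amino acids.

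RNA came from primary hepatocytes of *Drp1*LiKO mice (*Alb-Cre* Tg/+ *Drp1* flox/flox) and of control mice, *Drp1* flox/flox sibling littermates that the labels call wild type control, both of C57BL/6 background. DRP1, the product of *Dnm1l*, is a GTPase that divides mitochondria. Cre was driven by the albumin promoter, which is active in hepatocytes, so other liver cells carried over into a culture keep the gene. The cells were harvested 24 h after seeding, and the comparison addressed which genes differ in expression once *Drp1* is deleted. Age, number and pooling of the animals behind each array, and any treatment beyond culture, are not given in the sources used here. There was 1 array per genotype, both on 1 slide, without replicates, so no test could be run and there are no p-values. Each difference describes these 2 arrays.

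Interleukins are secreted signals that act on cells carrying the matching receptor chains, and most receptors pair a chain that binds one ligand with a chain shared by several. IL-6 and its relatives signal through the shared chain gp130 and Janus kinases to STAT3, IL-1 and its relatives through MYD88 and kinases to NF-κB, and ligands of the common gamma chain through JAK3 and STAT proteins. In liver, IL-6 and IL-1 drive hepatocytes to secrete acute phase proteins, and Kupffer cells, the resident macrophages, are a main source of both. Decoy receptors and binding proteins hold a ligand without passing on a signal.

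The oligos that carried the largest differences are shown by the first 30 of their 60 bases, since each of these genes rests on 1 or 2 detected oligos. Positions are those of the files, in mm9, and the files name the transcript of each probe, whereas its place in an exon or untranslated region was not analysed here. *Il6* (NM_031168, chr5:30346367-30346426, plus strand), *Il11* (NM_008350, chr7:4724847-4724906, minus), *Il7* (NM_008371, chr3:7573196-7573255, minus) and *Il1f9* (NM_153511, chr2:24048444-24048503, plus) are ligands with higher signals in *Drp1*LiKO cells. *Il18r1* (NM_008365, chr1:40557541-40557600, plus) and *Il20ra* (NM_172786, chr10:19471373-19475630, plus, over a junction of exons) encode receptor chains, the first with a higher and the second with a lower signal. *Il13ra2* (NM_008356, chrX:143818095-143818154, minus) encodes a decoy receptor with a lower signal.
Il6: ctgttacctagccagatggtttcttggaat
Il11: ctggggtctctatgaaatctgttcacagtg
Il7: gcacttattccaaagatactgaaccttagt
Il1f9: tttcatagatgaagaagcaacaaaataatg
Il18r1: tgtcacaacagctgtgtgtgaaaacctagc
Il20ra: agtgcatcagtactttggaagttcaaacat
Il13ra2: ttcttgacatagagccagccagcaggagtc

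Promoters were read from RefSeq on GRCm38.p6, as windows of 250 bases before to 50 after each start, and 62 of the 79 genes had 75 windows there. They were searched on both strands for the STAT site TTCNNNGAA, an interferon site (GAAA, any 2 bases, GAAA) and a kappaB site. A STAT site stood in 11 windows (14.7%) against 8.30% of all 32851 promoters, an interferon site in 3 (4%) against 3.44% and a kappaB site in 8 (10.7%) against 8.46%. Among genes past the threshold used for the ratios, the *Il6* window held a kappaB site at position -44 from the start, the *Il1f9* window a STAT site at -128, and 1 of the 3 *Il18r1* windows the 2 STAT sites TTCTGGGAA and TTCCCAGAA. The windows of *Il11*, *Il20ra* and *Il13ra2* held none of these letters, and *Il7* has no entry in the table. The 250 bases before the start follow for *Il6* (chr5:30012864-30013113, plus strand) and *Il1f9* (chr2:24186226-24186475, plus strand), 2 ligands that were seen in *Drp1*LiKO cells only, with the match in capitals. A match of letters is a description and does not show binding.
Il6 promoter: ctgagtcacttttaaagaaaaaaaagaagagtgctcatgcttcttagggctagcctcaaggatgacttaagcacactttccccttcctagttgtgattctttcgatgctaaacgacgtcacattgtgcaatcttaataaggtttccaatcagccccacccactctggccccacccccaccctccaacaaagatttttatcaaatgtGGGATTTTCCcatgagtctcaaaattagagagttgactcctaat
Il1f9 promoter: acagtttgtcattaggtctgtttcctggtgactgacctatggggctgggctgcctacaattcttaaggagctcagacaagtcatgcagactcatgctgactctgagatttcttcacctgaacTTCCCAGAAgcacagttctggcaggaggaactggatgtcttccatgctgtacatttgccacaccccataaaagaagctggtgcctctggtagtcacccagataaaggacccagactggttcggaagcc

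Signals are background-corrected intensities of single-color arrays, scaled so that the 75th percentile of both arrays is 334, and ratios are log2 values, *Drp1*LiKO minus control. A probe was detected if it was well above background on at least 1 array, and the lowest such signal, the detection limit, was 19.4 for the control and 14.1 for the *Drp1*LiKO array. Below background here means not well above it. Where 1 array lay below background, its signal was raised to that limit if it was lower, and otherwise kept. The ratio is then a bound, written as "at least". Kept signals were those of *Il13ra2* in *Drp1*LiKO cells (14.4) and of *Ebi3*, a gene of the lists below, in control cells (22.3). Each gene was represented by its brightest detected probe, and the threshold was a Z score of 2 over all detected probes, a log2 ratio of 1.30 or -1.31. The targeted gene, *Dnm1l*, gave 2772 on the control and 1143 on the *Drp1*LiKO array (log2 ratio -1.28), and its other probe 24.3 and 19.7 (-0.31). The label of the cells was checked on 10 hepatocyte markers, which were all detected in both cultures, had a median ratio of -0.03 and stayed short of the threshold.

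Of the 79 genes, 43 (54.4%) were detected, the same share as among all genes (54.4%). In control cells 34 were detected (43.0%, against 49.5% of all genes) and in *Drp1*LiKO cells 40 (50.6%, against 52.8%). By role, 13 of 36 ligands, 26 of 37 receptor chains and 3 of 4 decoys or binding proteins were detected. Signal was higher in *Drp1*LiKO cells for 22 genes and lower for 20, and for *Il12rb2* no fold could be given. Of the 31 genes measured on both arrays, 14 were higher and 17 lower. The median log2 ratio was 0.04, and -0.15 over the 31 genes measured on both arrays, where that of all genes was -0.05 both ways. The detected genes thus lay about where the array as a whole lay.

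Past the threshold, 5 of the 43 detected genes were higher, against a background of 3.5% of all 20165 detected genes, and 2 were lower, against 2.81%. Of the 5 higher genes 4 encode ligands, *Il6*, *Il11*, *Il7* and *Il1f9*, and the fifth, *Il18r1*, a receptor chain. Of the 2 lower genes one, *Il20ra*, encodes a receptor chain and the other, *Il13ra2*, a decoy receptor. Only *Il11* and *Il7* were measured on both arrays, 2 of 31 such genes against a background of 2.48% for higher and 1.58% for lower genes, and the other 5 ratios are bounds. Counted by any detected probe of a gene, 6 genes were higher, with *Il17rd* added, and 2 lower, against 3.96% and 3.42% of all genes. Neither *Il11* nor *Il1f9* has a second probe, *Il6* has a second detected one, and the further probes of the remaining 4 genes were below background on both arrays. The plot of signals by gene shows both arrays for all 43 genes.

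**Figure D1:**
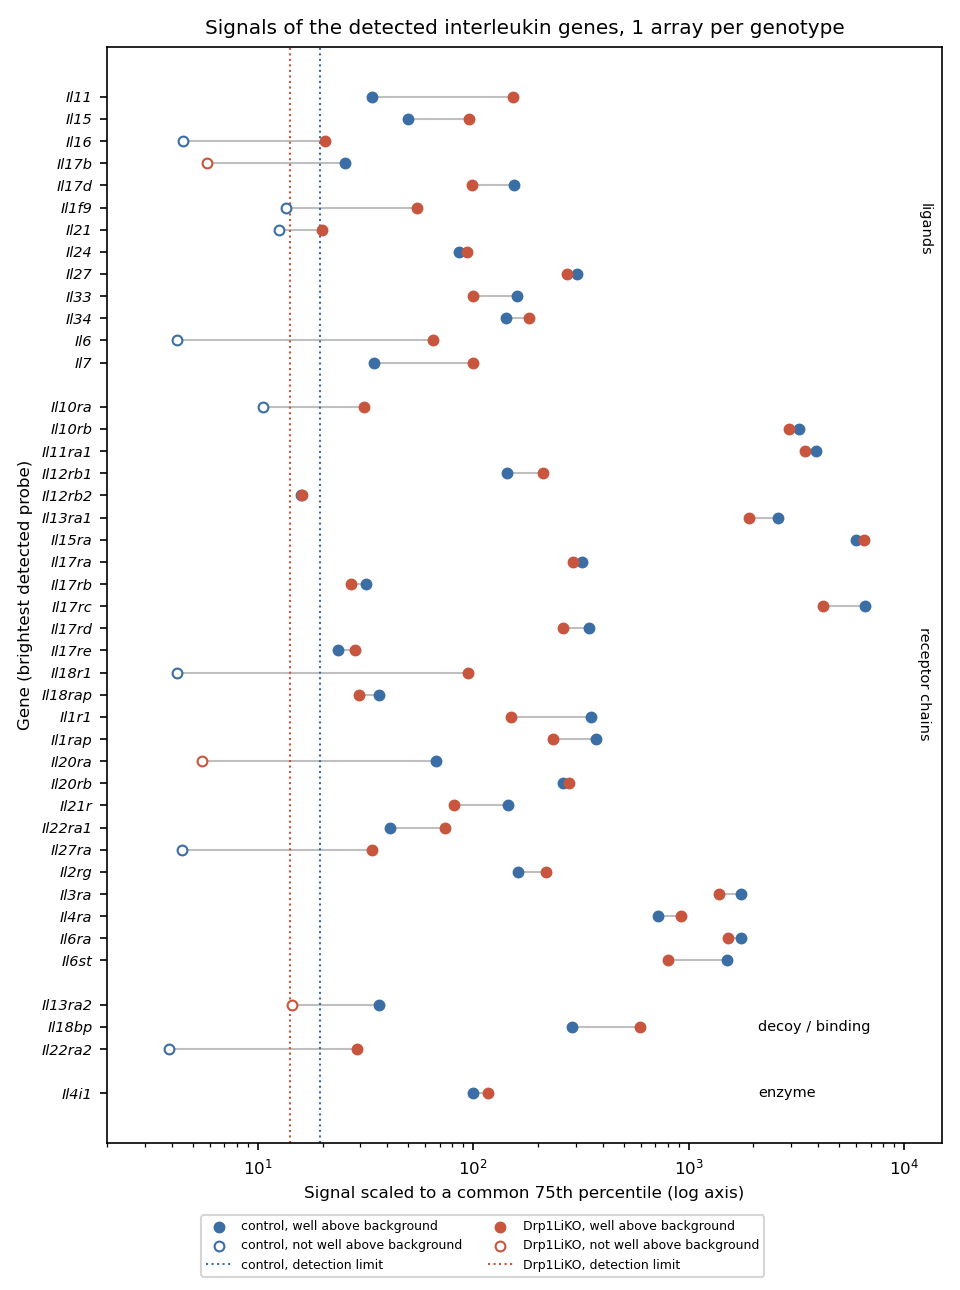
Signal of the brightest detected probe of each of the 43 detected genes on the control array (blue) and the *Drp1*LiKO array (red), on a log axis, grouped by role. Filled points are well above background, open points are not, and dotted lines mark the detection limits of 19.4 and 14.1. The widest gaps belong to genes with 1 open point, such as *Il18r1*, *Il6* and *Il20ra*.

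*Il11* encodes a relative of IL-6 made mainly by stromal cells, which acts on hepatocytes and stellate cells. The control array gave a signal of 33.8 and the *Drp1*LiKO array 154. The difference was 4.55-fold, a log2 ratio of 2.19 (Z score 3.36), where the noise between spots of this signal gives an SD of 0.18. This was the largest difference measured on both arrays among the 79 genes. *Il6*, which encodes the main inducer of the acute phase response, was below background in control cells at 4.23 and reached 65.4 in *Drp1*LiKO cells, at least 3.37-fold higher (Z score 2.70). The second *Il6* probe, at 4.58 and 36.7, was at least 1.89-fold higher. On the arrays both oligos of *Il6* thus were seen in *Drp1*LiKO cells only, and the second stayed short of the threshold. In the deposited normalized values the second was below the detection limit in both cultures.

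*Il7* encodes a growth factor of lymphocytes that hepatocytes and stromal cells can make. It went from 34.5 in control to 99.6 in *Drp1*LiKO cells, 2.89-fold (log2 ratio 1.53, Z score 2.36, spot noise 0.20), at the probe for NM_008371. Its other 2 probes, for other transcripts, were below background on both arrays. *Il1f9* encodes IL-36γ, a ligand of the IL-1 family known from epithelia. Its signal of 13.5 in control cells was below background, and with 54.7 in *Drp1*LiKO cells it was at least 2.82-fold higher (Z score 2.30). It was the higher gene nearest to the threshold, and the nearest below it was *Il18bp* with a Z score of 1.62.

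Among the other detected ligands, *Il15*, which encodes a survival factor of NK and memory T cells, was at 50.1 on the control and 95.9 on the *Drp1*LiKO array (log2 ratio 0.94). Another *Il15* probe was at least 2.32-fold higher, and the remaining one, at 16.8 in *Drp1*LiKO cells, allowed no fold. *Il34*, which encodes a ligand of the macrophage receptor CSF1R, was 142 and 182 (0.36), with 0.49 at its second probe. *Il33*, an alarmin kept in nuclei, was 159 and 100.2 (-0.67). *Il17d*, a ligand of the IL-17 family made outside lymphocytes, was 155 and 99.1 (-0.65), and *Il17b* was 25.4 in control cells and below background in *Drp1*LiKO cells, at least 1.81-fold lower. *Il27*, which encodes one of the 2 subunits of IL-27, had signals of 303 and 272 (-0.15), and *Il24*, of the IL-10 family, 85.7 and 93.5 (0.13). *Il16* and *Il21* were just above the limit in *Drp1*LiKO cells only, with bounds of 1.05-fold and 1.03-fold. Of the 13 detected ligands 9 were higher and 4 lower, with a median of 0.13. Of these, *Il6*, *Il1f9*, *Il16* and *Il21* were detected through the *Drp1*LiKO array alone, and *Il17b* through the control array alone. Of the 8 ligands measured on both arrays, 5 were higher and 3 lower.

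The 23 ligands that were not detected on either array include most products of lymphocytes, *Il2*, *Il3*, *Il4*, *Il5*, *Il9*, *Il13*, *Il17a*, *Il17f*, *Il22* and *Il31*. They also include *Il10*, *Il12a*, *Il12b* and *Il23a*, which encode ligands of macrophages and dendritic cells, and *Il1a*, *Il1f5*, *Il1f6*, *Il1f8*, *Il1f10*, *Il17c*, *Il19*, *Il20* and *Il25*. Their highest signal in control cells was 20.5, for *Il17a*, a spot that did not count as well above background, and no difference was detectable for them at this signal.

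In the same 2 cultures, markers of cells other than hepatocytes differed as well. Of 14 markers of Kupffer cells and macrophages 12 were detected, all 12 were higher in *Drp1*LiKO cells and 10 passed the threshold, with a median log2 ratio of 2.42. Their summed signals were 5018 (control) and 19265 (*Drp1*LiKO), and *Timd4* and *Cd163* were not detected. Endothelial markers (8 of 8 detected, 4 past the threshold, median 1.60) had summed signals of 4393 and 7941, of which *Egfl7* alone gave 4020 and 6515. Stellate cell markers (6 of 8, 2 past the threshold, median 1.04) had sums of 423 and 4115, of which *Dcn* alone gave 217 and 3612. *Lrat* and *Hand2* were not detected. Of 8 T and NK cell markers only *Cd3e* was detected, with a log2 ratio of -0.37, and of 5 B cell markers *Pax5* (-0.52) and *Ms4a1*. Of 6 neutrophil markers *Ly6g* was at least 3.72-fold higher and *Csf3r* had 0.17, while *S100a8*, *S100a9*, *Mpo* and *Ngp* were not detected, and of 4 mast cell markers only *Tpsb2* (0.38) was. In whole cultures, fewer cells of a type and less RNA per cell cannot be told apart. What part macrophages, endothelial or stellate cells had in the signals of *Il6*, *Il11*, *Il7*, *Il1f9* and *Il18r1* was not tested.

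Receptor chains were detected more often than ligands, 26 of 37, and 10 were higher and 15 lower, with a median of -0.18 where that of all genes was -0.05. Of the 21 chains measured on both arrays, 7 were higher and 14 lower. *Il18r1* encodes the chain that binds IL-18. Its signal was below background in control cells at 4.21 and 94.6 in *Drp1*LiKO cells, at least 4.87-fold higher (Z score 3.51). In the table of normalized values that the authors also deposited, however, *Il18r1* was at 3.86 and 3.85, below the detection limit in both cultures, which ends the call. A second probe, for another transcript of *Il18r1*, was below background on both arrays, at 4.62 and 3.31. *Il18rap*, which encodes the second chain of this receptor, had signals of 36.5 and 29.4 (-0.31). *Il20ra*, which encodes a chain of the receptor for IL-19, IL-20 and IL-24, reached 67.5 in control cells and below background at 5.51 in *Drp1*LiKO cells, at least 4.80-fold lower (Z score -3.46). Its other probe was not detected on either array, and *Il20rb*, which encodes the chain it pairs with, had signals of 260.0 and 280.0 (0.11).

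Within the IL-1 family, *Il1r1* encodes the receptor that passes on the signal of IL-1. It gave 352 on the control and 150.3 on the *Drp1*LiKO array, 2.34-fold lower (log2 ratio -1.23, spot noise 0.17). With a Z score of -1.87 it was the gene nearest below the lower threshold, as *Il13ra2* (-2.06) was the nearest past it. *Il1rap* encodes the accessory chain that receptors of IL-1, IL-33 and IL-36 share, in a membrane form and a soluble form, and its 2 detected probes differed in direction. The probe for NM_008364 went from 372 to 235 (-0.66) and that for NM_134103 from 181 to 277 (0.61), each beyond spot noise of 0.16 and 0.17. The receptors of IL-33 (*Il1rl1*) and IL-36 (*Il1rl2*), the decoy *Il1r2*, and *Il1rapl1* and *Il1rapl2* were not detected. *Il1r1*, *Il18r1* and *Il18rap* lie in a run of 6 neighboring members on chromosome 1, in the RefSeq order of coding genes *Il1r2*, *Il1r1*, *Il1rl2*, *Il1rl1*, *Il18r1* and *Il18rap*. Within this run *Il1r1* and, by less, *Il18rap* (-0.31) were lower, and 3 genes were not detected. *Il18r1* was higher in the array file only. Likewise, of the 5 neighboring ligands *Il1f8*, *Il1f9*, *Il1f6*, *Il1f5* and *Il1f10* on chromosome 2 only *Il1f9* was detected.

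The receptor of IL-6 consists of a binding chain, *Il6ra*, and gp130, *Il6st*, which is shared with IL-11, IL-27 and other ligands. *Il6st* was at 1512 on the control and 801 on the *Drp1*LiKO array, with a log2 ratio of -0.92 against spot noise of 0.10, and -0.74 at its second probe. *Il6ra* had signals of 1753 and 1518 (-0.21, second probe -0.11) and *Il11ra1*, the binding chain of IL-11, of 3893 and 3481 (-0.16). The ligands *Il6* and *Il11* were higher in *Drp1*LiKO cells. All 3 chains of their receptors were lower, none past the threshold, and *Il6ra* and *Il11ra1* lay near the median of all genes, -0.05. *Il27ra* was seen in *Drp1*LiKO cells only, at 33.9, at least 1.74-fold higher. *Il12rb1*, a chain of the receptors for IL-12 and IL-23, was 144 and 212 (0.56), and its partners *Il12rb2* (15.9 and 16.1) and *Il23r* (not detected) allowed no fold.

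Chains that pair with the common gamma chain carry the signals of IL-2, IL-4, IL-7, IL-9, IL-15 and IL-21. *Il2rg*, the common gamma chain itself, had signals of 162 and 217 (0.43). *Il21r* was at 145 and 81.3, with log2 ratios of -0.83 and -0.85 at its 2 probes. *Il4ra*, shared by IL-4 and IL-13, had 719 and 921 (0.36) at its brightest and -0.18 at its other probe, and *Il15ra* 5958 and 6500.4 (0.13) at its brightest and -0.44 and -0.52 at the others. *Il13ra1*, the second chain of the IL-13 receptor, had 2610.4 and 1912 (-0.45). *Il2ra*, *Il2rb*, *Il7r* and *Il9r* were not detected, so the ligand *Il7* was higher while its own binding chain was below background in both cultures. *Il3ra*, the one detected chain of the common beta family, had 1748 and 1384 (-0.34, second probe -0.05).

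Every one of the 5 chains of the IL-10 family of receptors was detected. *Il10rb*, which IL-10 and IL-22 share and which hepatocytes express, had signals of 3261 and 2940 (-0.15; spot noise 0.07). *Il22ra1*, which makes epithelial cells and hepatocytes responsive to IL-22, was 41.2 and 74.1 (0.85). *Il10ra*, which confers IL-10 response on leukocytes, was below background in control cells and 31.2 in *Drp1*LiKO cells, at least 1.61-fold higher. All 5 chains of IL-17 receptors were detected on both arrays, and 4 of them were lower at their brightest probe. *Il17rc* was 6581 and 4200 (-0.65, second probe -0.62), *Il17ra*, which pairs with it, 321 and 290.1 (-0.15), and *Il17rb* 31.8 and 27.2 (-0.22, second probe -0.30). *Il17re* had 23.6 and 28.3 (0.26). *Il17rd* had -0.40 at its brightest probe, for BC066804, but 0.62 and at least 1.59 at 2 probes for NM_134437, the latter past the threshold. With the ligands *Il17b* and *Il17d*, 6 of the 7 detected genes of the IL-17 family were lower, with a median of -0.40.

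Of the decoys and binding proteins, *Il13ra2* had a signal of 36.7 in control cells and was below background at 14.4 in *Drp1*LiKO cells, at least 2.56-fold lower. Its second probe was not detected. *Il18bp* encodes the secreted protein that neutralizes IL-18. It was at 288 on the control and 595 on the *Drp1*LiKO array, 2.07-fold higher and short of the threshold (Z score 1.62), with log2 ratios of 1.05 and 1.07 at its 2 probes against spot noise of 0.14. *Il22ra2*, which encodes the binding protein of IL-22, was seen in *Drp1*LiKO cells only, at 28.8, with a log2 ratio of at least 0.57. *Il4i1* had signals of 99.3 and 117 (0.24). The plot of ratios by family sets these genes side by side.

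**Figure D2:**
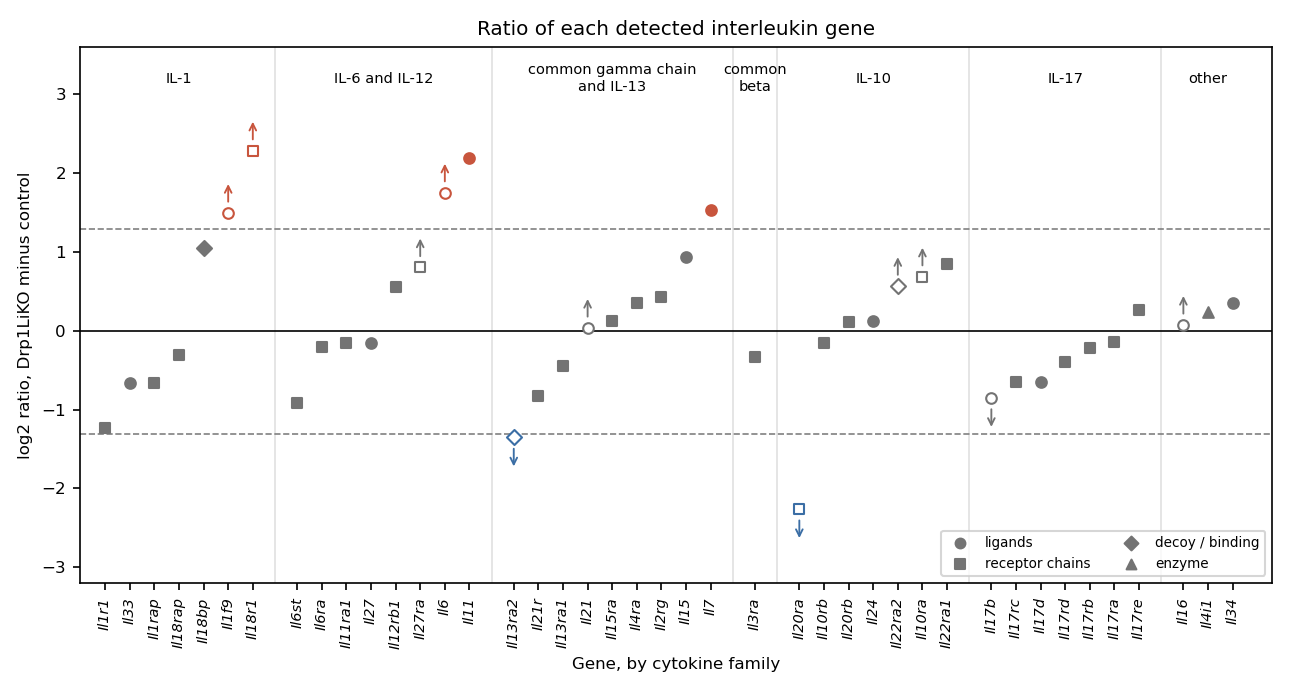
Log2 ratio (*Drp1*LiKO minus control) at the brightest probe of the 42 detected genes that allow one, by cytokine family, with dashed lines at the Z score threshold of 2 (1.30 and -1.31). Symbols give the role, open symbols with arrows are bounds, red marks the 5 genes past the threshold above and blue the 2 past it below. Most receptor chains (squares) lie between the lines.

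Of 16 genes with more than 1 detected probe, the probes had the same sign in 11, opposite signs in *Il1rap*, *Il17rd*, *Il15ra* and *Il4ra*, and in *Il33* they could not be compared, since its second probe allowed no fold. Different probes of a gene can lie in different transcripts. The opposite probes of *Il1rap* were printed for the 2 transcripts named above, and are shown by their first 30 bases (chr16:26717577-26717636 and chr16:26701498-26701557, plus strand), as are those of *Il17rd* (chr14:27902088-27902147, chr14:27913180-27913239 and chr14:27920311-27920370, plus strand).
Il1rap, NM_008364: tgtatacagccacatgggatttaattctct
Il1rap, NM_134103: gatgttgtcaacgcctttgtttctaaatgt
Il17rd, BC066804: gaagttatataggttaaggctggcaaacct
Il17rd, NM_134437, first: agaagcagtttatacccttccaacatcccc
Il17rd, NM_134437, second: atagcactgtgccatatttttacattggcg

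**Figure D3:**
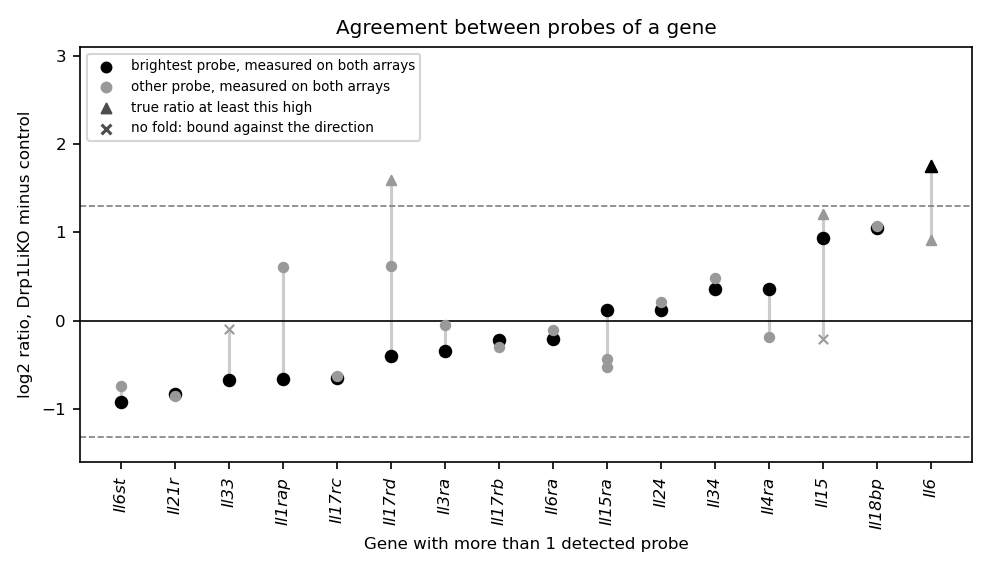
Log2 ratio (*Drp1*LiKO minus control) of every detected probe of the 16 genes with more than 1, black for the brightest probe and gray for the others, with dashed lines at the threshold. Circles were measured on both arrays, triangles are lower bounds of the ratio and crosses are probes that allow no fold. *Il1rap*, *Il17rd*, *Il15ra* and *Il4ra* have probes on both sides of 0.

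The machinery below these receptors was read from lists of textbook genes. Of 10 Janus kinases and STATs 9 were detected, and *Stat2* (1311 and 3346, 1.35), which carries interferon signals, passed the threshold. *Stat3*, which carries those of IL-6 and IL-11, had signals of 5075 and 6529 (0.36), and the median of the list was -0.04. None of 14 inhibitors of cytokine signals passed (median -0.05), with *Socs3*, a feedback target of STAT3, at 295 and 384 (0.38). Likewise none of 15 adaptors and kinases of the IL-1 and IL-18 receptors (median 0.04) and none of 6 detected adaptors of IL-17 receptors (median -0.11) passed. Ratios of the IL-1 and IL-18 receptor adaptors lay between -0.45 and 0.38.

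Of 18 partners whose names do not start with Il, 16 were detected and 3 passed the threshold, with a median of 0.17. *Ebi3*, which encodes the second subunit of IL-27, was below background in control cells and 77.4 in *Drp1*LiKO cells, at least 3.47-fold higher. *Csf2rb2*, a chain of the mouse IL-3 receptor, was 87.1 in *Drp1*LiKO cells only, at least 4.49-fold higher, while *Csf2rb*, its close relative in sequence, had 52.5 and 28.4 (-0.89). *Csf1*, which encodes the other ligand of the receptor of IL-34, went from 8480.2 to 2263, 3.75-fold lower.

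Genes that IL-6 and IL-1 induce in hepatocytes during the acute phase were all detected. Of these 21 genes 4 were higher and 17 lower in *Drp1*LiKO cells, with a median of -0.28. *Lcn2*, which binds bacterial siderophores, passed the threshold upward (7633 and 24882, 3.26-fold). *Hamp*, which encodes the iron hormone hepcidin, was 4.98-fold lower (25860 and 5195), and *Crp*, with 98.6 in control cells, at least 7.02-fold lower. *Saa1*, which encodes a major acute phase protein of mice, had signals of 117436 and 57121 (-1.04), short of the threshold. Of 11 genes that IL-4 and IL-13 induce in macrophages 5 were detected, with a median of -0.05. *Arg1*, which hepatocytes also express, had a log2 ratio of 1.63 (106 and 330) and *Retnla* at least 2.90-fold lower.

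**Figure D4:**
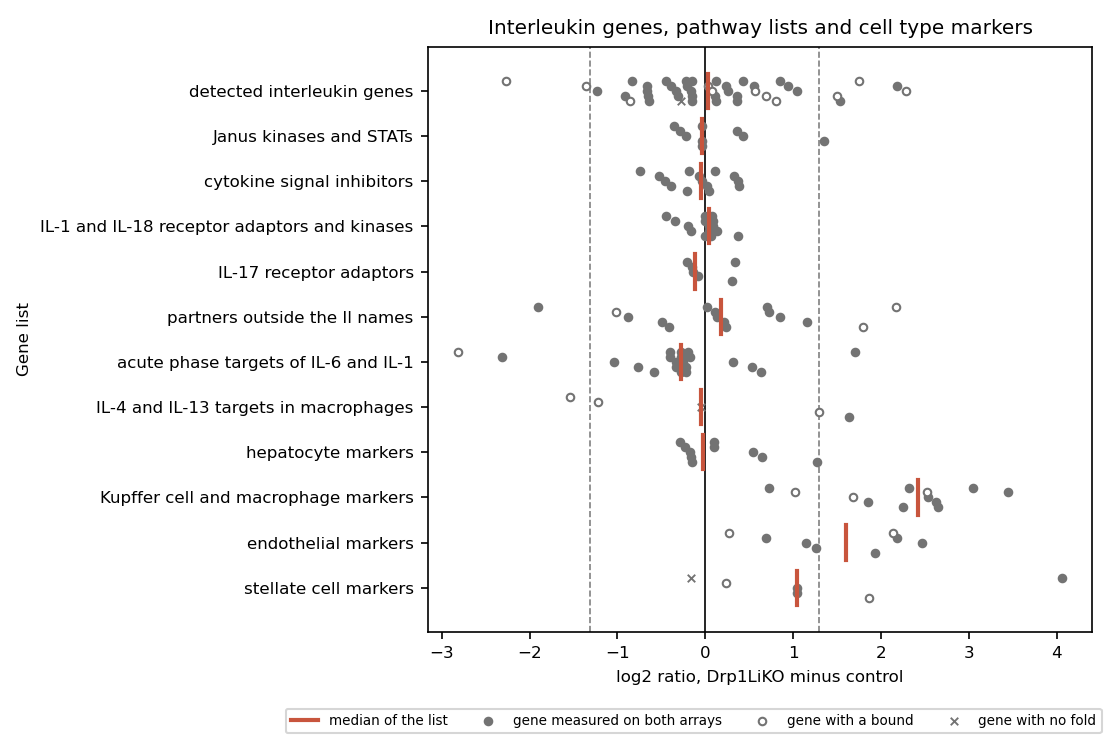
Log2 ratios (*Drp1*LiKO minus control) of the detected interleukin genes, of the pathway lists and of 4 lists of cell type markers, 1 point per gene, with the median of each list in red and dashed lines at the threshold. Open points are bounds and crosses allow no fold. The medians of the interleukin genes (0.04) and of the signaling lists lie near 0, and those of macrophage (2.42), endothelial (1.60) and stellate cell (1.04) markers above it.

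The authors also deposited normalized intensities. The control column kept the order of the control array (rank correlation 1 over 30275 detected probes), whereas the order in the *Drp1*LiKO column departed from the *Drp1*LiKO array (0.988 over the same probes), and what sets it apart is not given in the sources used here. Both sources are therefore given for the genes past the threshold, with a detection limit of 23.8 for the deposited values. *Il6* had deposited values of 3.87 for control and 42.3 for *Drp1*LiKO cells, *Il11* of 36.1 and 102, *Il7* of 36.8 and 112 and *Il1f9* of 14.4 and 46.8. The 4 ligands were therefore higher in *Drp1*LiKO cells by both sources, although *Il6* and *Il1f9*, counted from the detection limit, fell short of the threshold there. The second *Il6* probe had deposited values of 4.23 and 21.4, both below the limit. *Il20ra* was lower in both, with deposited values of 70.7 and 3.69. *Il13ra2* had 39.3 and 24.7, both above the limit, and fell short of the threshold there (Z score -1.02). *Il18r1*, by contrast, had deposited values of 3.86 and 3.85, both below the limit, so its higher signal stands in the array file only, and the same holds for *Il22ra2* (3.58 and 3.57) and for the *Il17rd* probe past the threshold (11.9 and 11.8). Among the 31 genes above the limit in both deposited columns, 27 had the same direction in both sources, and *Il15ra*, *Il24*, *Il3ra* and *Il4i1* the opposite one. The difference was widest in *Il3ra*, with deposited values of 1723 and 2918 against array signals of 1748 and 1384.

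**Figure D5:**
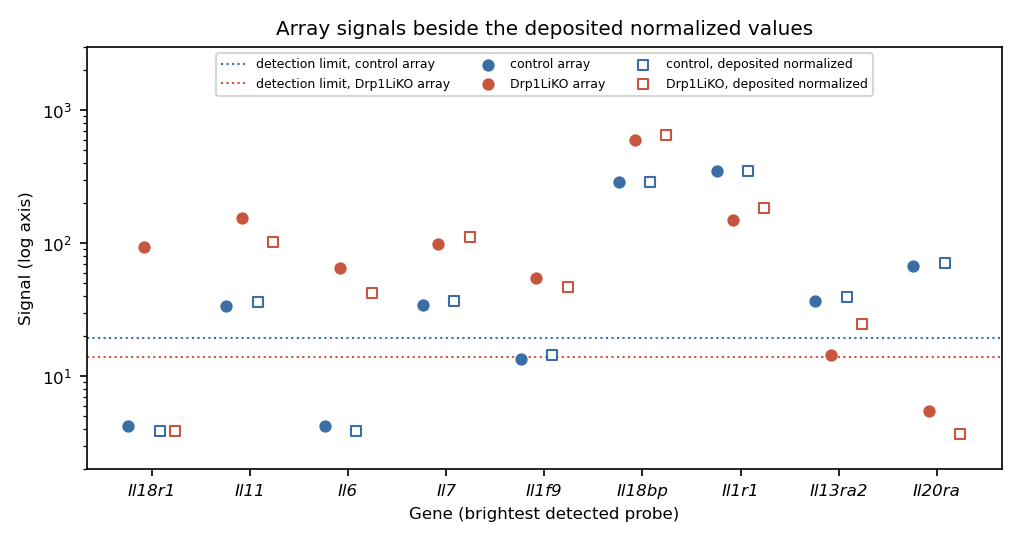
Signals of the 7 genes past the threshold and of *Il18bp* and *Il1r1* from the arrays (circles) and from the deposited normalized values (squares), control in blue and *Drp1*LiKO in red, on a log axis. Dotted lines mark the detection limits of the arrays. For *Il18r1* the red circle (94.6) and the red square (3.85) lie far apart, and for the other 8 genes both sources order the cultures alike.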

How the data were processed

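Single-color 60-mer arrays of primary hepatocytes, 1 per genotype, were analyzed. For each array the authors deposited scanner output with a processed signal that is a linear intensity after background subtraction by Feature Extraction (9.5.1.1 per the submitters' processing notes, 10.7.1.1 per the file headers), and a table of normalized intensities, made by a method not given in the sources used here. After control spots and flagged outlier spots were removed, the spots of a probe were averaged on the log2 scale and each array's 75th percentile (313 for control, 356 for *Drp1*LiKO) was brought to 1 common value. Detection asked for most spots of a probe to be well above background. The Z score was taken over 30275 detected probes (mean -0.008, SD 0.65 of the log2 ratio). Medians of lists take bounds and ratios that allow no fold at the value computed for them.

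Genes were 79 names of the array design, all 79 of which stand in RefSeq as symbols. The genes, their roles, the lists and the rule for named genes were chosen with earlier results of these data known. The lists leave out 1 gene that is not reported here. That rule names every member past or nearest to the threshold, every detected ligand, and members whose probes differ in sign. It also names the detected receptor chains, decoys and binding proteins of a set list of interleukins. Of the pathway lists, but not of the cell type markers, it names the genes past the threshold. *Il3ra*, *Il12rb1*, *Il12rb2*, *Il20rb*, *Il21r* and *Il4i1* were named beyond the rule. *Stat3*, *Socs3*, *Saa1*, *Csf2rb*, *Egfl7* and the single detected markers were named after their values were seen. Spot noise was taken from 300 probes printed 10 times (median SD 0.038 for control and 0.042 for *Drp1*LiKO, and 0.22 and 0.29 at signals below 64), holds no difference between cultures, and covers no biological spread. Precision is limited by having 1 array each.

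Alternatives were normexp background correction (offset 50, limma), quantile normalization, scaling to spike-in probes, the deposited values, 2 other filters on dim probes, no floor, 2 other Z scores, the median of a gene's probes and outlier spots kept. A count by any probe, and the limit for the deposited values (the 1st percentile of its control column over probes that were well above background), were added after seeing the data. In a simulated *Drp1*LiKO array made from the control array, 200 of 200 changed genes were recovered and 11 unchanged ones of 18355 genes passed. The planted changes were all larger than the threshold, lay in bright genes and left detection alike on both arrays. Their recovery was thus largely set by the design, and the simulation cannot speak for bounds or dim signals such as those reported here. Software was R 4.3.3 with limma 3.58.1 for normexp, and for all else Python 3.11.15 with pandas 2.3.3, numpy 2.4.6, matplotlib 3.10.9 and scipy 1.17.1.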

Additional observations from a re-analysis of the deposited data

How the results depend on the processing

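No paired analysis was possible because each genotype has 1 array, and for the same reason no array could be left out. The counts of 5 higher and 2 lower genes were 5 and 2 with quantile normalization, spike-in scaling, the median of a gene's probes and outlier spots kept. By any probe they were 6 and 2. With no floor they were 7 and 2, but the members changed. *Il16*, *Il22ra2* and *Il27ra* joined the higher genes and *Il7* left them, and *Il17b* took the place of *Il13ra2* among the lower. With normexp background correction 3 genes were higher (*Il11*, *Il18bp* and *Il18r1*) and 2 lower (*Il1r1* and *Il20ra*). The deposited values gave 2 higher (*Il11* and *Il7*) and 1 lower (*Il20ra*), and probes well above background on both arrays, which leaves out every bound, 2 higher (*Il11* and *Il7*) and 1 lower (*Il1r1*). With no filter 8 were higher, and the median of the 79 genes was -0.47, as was that of all genes. A probe under the detection limit in both cultures takes the ratio of the limits. That filter moved the share of higher genes among all genes past the threshold from 55.5% to 69.4%. A Z score from the median and median absolute deviation gave 9 higher and 6 lower. That cutoff was looser, as it called 8.54% of all genes higher and 7.16% lower, against 3.5% and 2.81% with the Z score used above. Scoring within groups of probes alike in signal gave 2 higher (*Il11* and *Il18r1*), with 46.7% of all genes past the threshold higher. In the other alternatives the shares of all genes lay between 3.17% and 4.07% for higher and between 1.61% and 3.62% for lower genes. The median log2 ratio was -0.15 on both arrays' detected probes and between -0.08 and 0.11 in the other settings apart from that without a filter. *Il11* passed in all 11 alternatives and *Il20ra* in all 10 that gave it a value. *Il7* passed in 8 of 11, and *Il6*, *Il1f9* and *Il13ra2* in 7 of 10 each. *Il18r1* passed in the 9 that gave it a value. In the deposited values it was below the limit in both cultures, which ends its call there, and the filter on both arrays left it out. The lowest log2 ratio of each of the 5 higher genes came from normexp, 1.14 for *Il11*, 0.88 for *Il18r1*, 0.63 for *Il6*, 0.64 for *Il7* and 0.47 for *Il1f9*. Where a signal was not well above background, as for *Il6*, *Il1f9*, *Il18r1*, *Il20ra* and *Il13ra2* on 1 array, only bounds are possible. The cause of the other differences between settings was not tested.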
